A study of Rattus norvegicus with 96 samples.

Results

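The mitochondrial respiratory chain passes electrons from NADH and succinate to oxygen and uses the proton gradient it builds to make ATP. Complex I takes electrons from NADH, complex II (succinate dehydrogenase) takes them from succinate, complex III hands them to cytochrome c, complex IV (cytochrome c oxidase) reduces oxygen, and the ATP synthase closes the circuit. In the brain this machinery supplies most of the ATP that ion pumping and synaptic transmission use. Its subunits are encoded by nuclear genes and, for a few core subunits, by the mitochondrial genome.

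Here 55 nuclear genes of this machinery were followed through the 3 brain regions and the 6 nicotine comparisons of the sensitization (SST) experiment. They were chosen by name: each is a row of the count table whose symbol, in the gene tables that accompany the study, begins with Nduf, Sdha to Sdhd, Uqcr, Cox4 to Cox8, Cox10 to Cox19 or Atp5. These tables gave a symbol to 7926 of the 17637 genes of the count table, and all 55 members were among the 16879 genes tested. The members comprised 25 genes of complex I (20 subunits and 5 assembly factors), 3 of complex II, 6 of complex III, 8 of complex IV and 13 of the ATP synthase. The tables mostly list genes that changed with nicotine, so the choice of members used the same readout. Of the 55 members, 47 were named through tables of genes changed in these very comparisons: 33 through male NAc core, 13 through male NAc shell, 8 through female VTA, 6 through female NAc core, 3 through female NAc shell and 1 through male VTA. In the comparison that named it, a gene's nicotine difference is a description only. The cell type markers and other gene lists below also hold only genes that these tables named. Their nicotine counts carry the same selection. A set of 15 members was named through self-administration or allelic tables of libraries not analysed here, 8 of them through no other table and 7 also through tables of these libraries.

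The rats were F1 crosses of the inbred strains F344 and BN, in early adulthood, with both cross directions mixed in every group. Groups of 8 males and 8 females received 0.4 mg/kg nicotine (NIC) each day for 4 days and equal groups received saline (SAL), and tissue was taken on day 17 per the labels. RNA came from hand-dissected ventral tegmental area (VTA, the origin of the dopamine projection) and from the core and shell of the nucleus accumbens (NAc, its striatal target). The 94 libraries analysed came from groups of 8 rats, apart from 7 in 2 groups: NIC of female NAc core, where a library was left out, and male VTA SAL, where no library of rat 3 is analysed here. Their totals ran from 15868529 to 27736905 counts.

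The regional labels were checked with marker genes. Th, which makes the dopamine precursor, had a median of 711 normalized CPM (counts scaled to library size) in VTA against 1.63 in NAc core and 2.17 in shell, and the dopamine receptor gene Drd1 had medians of 1.27, 92.3 and 82.6. Of the 94 libraries, 3 were taken as standing apart: female VTA NIC 2 had a Th level of 17.9 CPM where the next lowest VTA library had 316, and male NAc core SAL 1 and male NAc shell SAL 1 had the lowest Drd1 of their regions (9.28 and 5.09 CPM, where the next lowest had 22.7 and 51.1). The members' counts that these libraries moved are given with and without them. Shares of all genes called were taken only for the main fits and those with prep batch. Counts with libraries left out thus have no such share beside them. Male NAc core SAL 3, NIC 10 and NIC 11 were also low in striatal projection neuron markers (medians of -1.77, -1.73 and -1.12 in log2 from the region's mean, against -2.97 in SAL 1) and were kept. In bulk tissue, fewer cells of a type and less RNA per cell cannot be told apart. CPM were not scaled to gene length, so levels are compared between groups for a gene and not between genes.

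The clearest differences among the members were between regions, in contrasts averaged over both treatments and both sexes that did not use the NIC against SAL difference. Of the 55 members, 21 were higher and 27 lower in VTA than in NAc core at an adjusted p under 0.05 (edgeR's quasi-likelihood test, adjusted over all genes tested), where 41.3% of all genes were called higher and 40.3% lower. Against NAc shell, 23 members were higher in VTA and 19 lower, with a background of 40.5% and 40.4%. The median difference of the members was -0.04 (log2) against NAc core and 0.01 against NAc shell (0.01 and 0.004 for all genes), and 20 members were higher and 19 lower in VTA against both accumbens regions, where 37.1% and 36.3% of all genes were. Shares called near the background say little of the chain as a whole, and the single genes carry the pattern. Without the libraries that stood apart the counts were 23 higher and 23 lower against NAc core, and 25 and 14 against NAc shell.

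**Figure D1:**
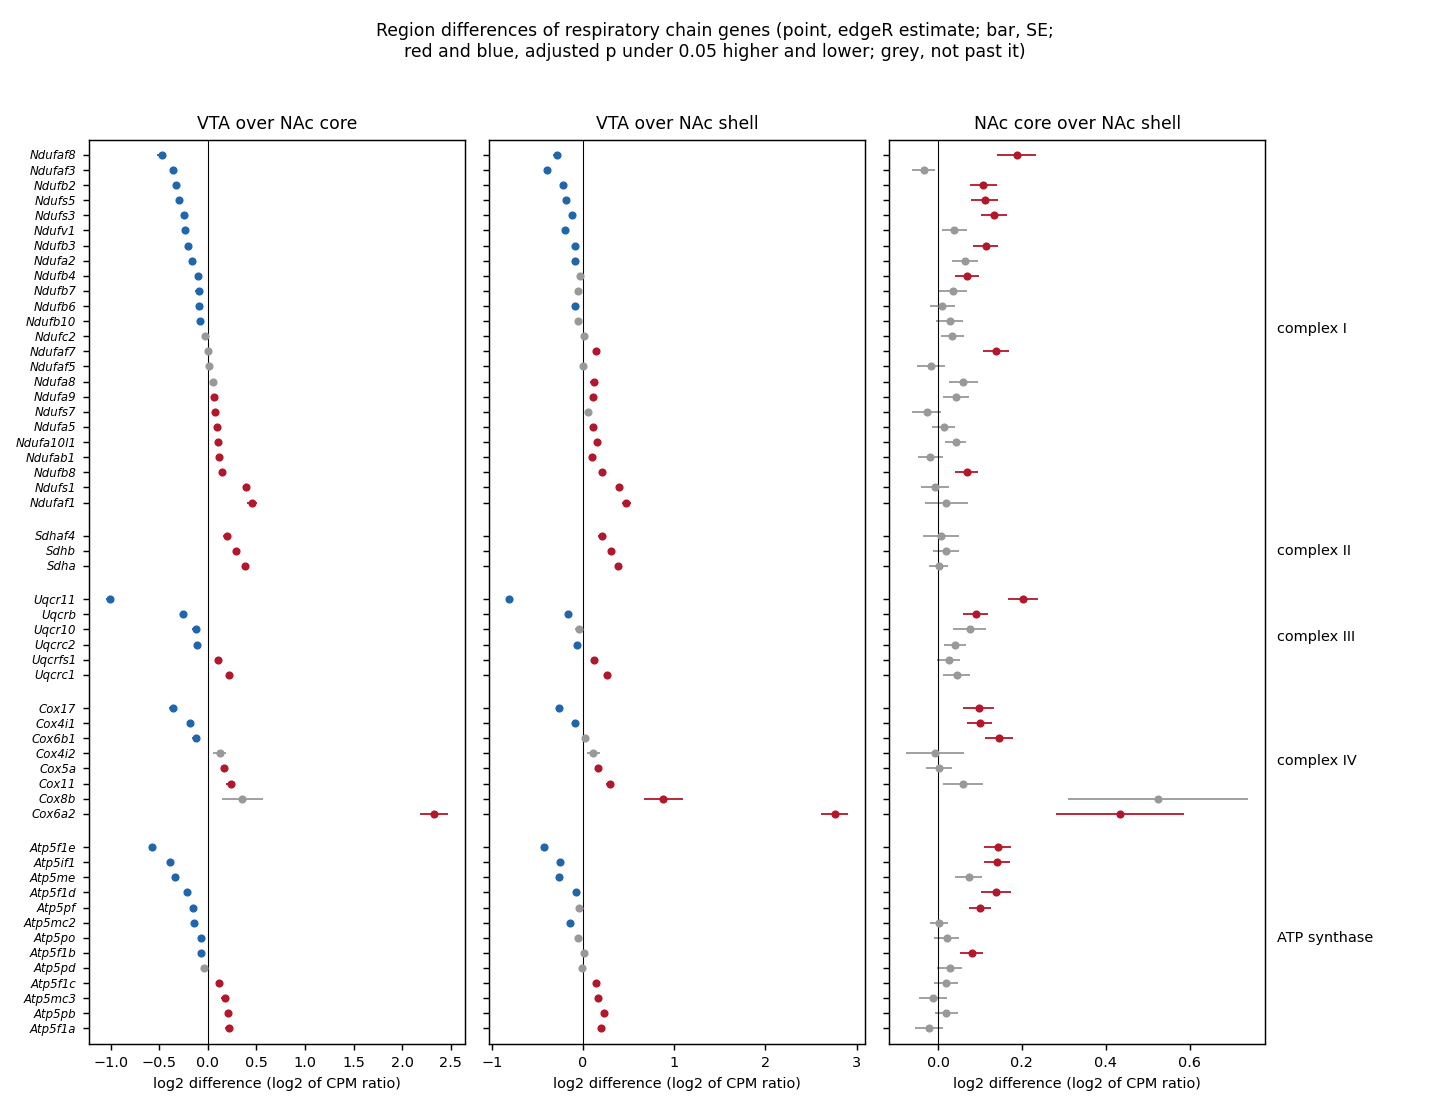
Log2 difference (x axis, log2 of the CPM ratio) of the respiratory chain genes (y axis, grouped by complex, 1 member not shown) between regions, with VTA over NAc core, VTA over NAc shell and NAc core over NAc shell from left to right. Points are edgeR estimates with SE bars, red and blue mark an adjusted p under 0.05 and grey marks the others; the x axes differ in scale, Cox6a2 stands furthest right at 2.33 and 2.76, and Uqcr11 furthest left at -1.01 and -0.81.

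The 3 members of complex II were all higher in VTA than in both accumbens regions, where 41.3% (against NAc core) and 40.5% (against shell) of all genes were. Sdha (ENSRNOG00000013331), the flavoprotein that oxidizes succinate and is shared with the citrate cycle, ran from 245 to 319 CPM in VTA with a median of 280, from 188 to 247 with a median of 217.0 in NAc core and from 195 to 259 with a median of 214 in NAc shell. The VTA libraries lay almost wholly above those of both accumbens regions. The difference was 0.38 ± 0.02 (log2, SE) against NAc core and 0.38 ± 0.02 against NAc shell (adjusted p = 1.21e-26 and 6.04e-27). Sdhb, the iron-sulphur subunit that receives the electrons, was higher by 0.29 and 0.31. Sdhaf4, an assembly factor that helps Sdha into the complex, was higher by 0.20 against both. NAc core and shell did not differ in these genes by more than 0.02, and none of the 3 passed the test.

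Some complex I genes were higher in VTA. Ndufs1 (ENSRNOG00000011849), the largest iron-sulphur subunit of the electron input arm, averaged 120 ± 11.6 CPM in VTA (SD, n = 31), 91.3 ± 9.29 in NAc core (n = 31) and 91.8 ± 8.79 in shell (n = 32). It was higher in VTA by 0.40 and 0.39 (adjusted p = 4.96e-19 and 7.38e-19). Ndufaf1 (ENSRNOG00000005006), an assembly factor for the membrane arm, had a median of 13.0 CPM in VTA, 9.79 in NAc core and 9.37 in shell, with differences of 0.46 ± 0.05 and 0.48 ± 0.05.

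Other complex I genes were lower in VTA. Ndufaf8 (ENSRNOG00000042653), a partner of the assembly factor Ndufaf5, averaged 36.2 ± 3.38 CPM in VTA (SD, n = 31), 50.4 ± 7.30 in NAc core and 44.1 ± 6.49 in shell, a difference of -0.47 ± 0.05 and -0.29 ± 0.05. Ndufaf5 itself was at 49.4, 49.0 and 49.6 CPM in the 3 regions and passed in no region contrast. The assembly factor Ndufaf3 was lower in VTA by similar amounts against both regions, -0.36 and -0.39 (adjusted p = 5.96e-21 and 2.16e-23). Of the small accessory subunits, Ndufb2 differed by -0.33 against NAc core and Ndufs5 by -0.30. In all, 9 of the 25 complex I members were higher and 12 lower in VTA than in NAc core (41.3% and 40.3% of all genes), and 10 and 9 against NAc shell (40.5% and 40.4%), shares near those of all genes.

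Complex III held the widest difference after Cox6a2 between VTA and NAc core. Uqcr11 (ENSRNOG00000016952), the smallest subunit of the complex, ran from 161 to 238 CPM in VTA with a median of 204, from 339 to 476 with a median of 401 in NAc core, and from 249 to 487 with a median of 352 in NAc shell. Its VTA values did not overlap those of either accumbens region. The fold was 2.02 in favour of NAc core and 1.75 in favour of NAc shell (log2 difference -1.01 ± 0.04 and -0.81 ± 0.04, adjusted p = 4.38e-42 and 1.66e-35). Over all 16879 genes, 9.89% did not overlap between VTA and NAc core and 6.58% between VTA and NAc shell. Among the members, Uqcr11 and Atp5f1e did not overlap in the former and only Uqcr11 in the latter. Uqcrc1, a core protein of the complex, went the other way and was higher in VTA by 0.22 and 0.26. Uqcrfs1, the Rieske iron-sulphur protein, was higher by 0.10 and 0.12, while Uqcrb, which binds near the quinone pocket, differed by -0.25 and -0.16. Subunits of the same complex thus differed in opposite directions between the same tissues.

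Among the 13 genes of the ATP synthase, 4 were higher and 8 lower in VTA than in NAc core (41.3% and 40.3% of all genes), and 4 and 5 against NAc shell (40.5% and 40.4%). Atp5f1e (ENSRNOG00000049912), the epsilon subunit of the central stalk, ran from 147 to 190 CPM in VTA with a median of 171, from 204 to 297 with a median of 253 in NAc core and from 173 to 290 with a median of 230 in NAc shell. It was lower in VTA by -0.58 ± 0.03 and -0.43 ± 0.03 (adjusted p = 2.27e-29 and 5.04e-22). The delta subunit Atp5f1d of the same stalk differed by -0.21 and -0.08. Atp5if1, the inhibitor that blocks ATP hydrolysis when the gradient collapses, differed by -0.39 and -0.25. In the catalytic head Atp5f1a, the alpha subunit, was higher in VTA by 0.21 and 0.19, and Atp5f1b, the catalytic beta subunit, differed by -0.07 and 0.01, of which only the first passed the test. Atp5pb of the peripheral stalk was higher in VTA by 0.21 and 0.23.

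Complex IV held the member that differed most. Cox6a2 (ENSRNOG00000019851), the heart and skeletal muscle isoform of subunit 6a, ran from 1.99 to 13.1 CPM in VTA with a median of 9.68, from 0.334 to 7.31 with a median of 1.60 in NAc core and from 0.338 to 3.71 with a median of 1.23 in NAc shell. Its VTA level was 5.02 times that of NAc core and 6.78 times that of NAc shell (log2 difference 2.33 ± 0.15 and 2.76 ± 0.15, adjusted p = 2.04e-26 and 5.21e-31). The lowest VTA value, 1.99 CPM, was that of female VTA NIC 2, whose Th was also low, and without the libraries that stood apart the differences were 2.44 and 2.89. NAc core was higher than shell by 0.43 ± 0.15 (adjusted p = 0.0214).

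Of the other tissue isoforms of complex IV, Cox8b had the same order of regions as Cox6a2 and Cox4i2 passed no test. Cox4i2, the isoform of subunit 4 best known from lung, averaged 4.29 ± 0.784 CPM in VTA (SD, n = 31), 3.95 ± 0.789 in NAc core and 3.96 ± 0.886 in shell and passed in no region contrast (adjusted p = 0.104, 0.123 and 0.957). Its ubiquitous counterpart Cox4i1 averaged 578 ± 52.6, 658 ± 51.3 and 614 ± 64.3 CPM, lower in VTA by -0.18 and -0.08. Cox8b, the muscle isoform of subunit 8, averaged 0.954, 0.768 and 0.524 CPM, levels that rest on few reads; its difference of 0.88 ± 0.21 between VTA and NAc shell passed (adjusted p = 0.000105) and that of 0.36 ± 0.21 between VTA and NAc core did not (adjusted p = 0.106). The highest Cox8b value in VTA, 2.97 CPM, was that of female VTA NIC 2, which stood apart. The copper chaperone Cox17 was lower in VTA by -0.36 and -0.27. The assembly factor Cox11, which also handles copper, was higher by 0.23 and 0.29.

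**Figure D2:**
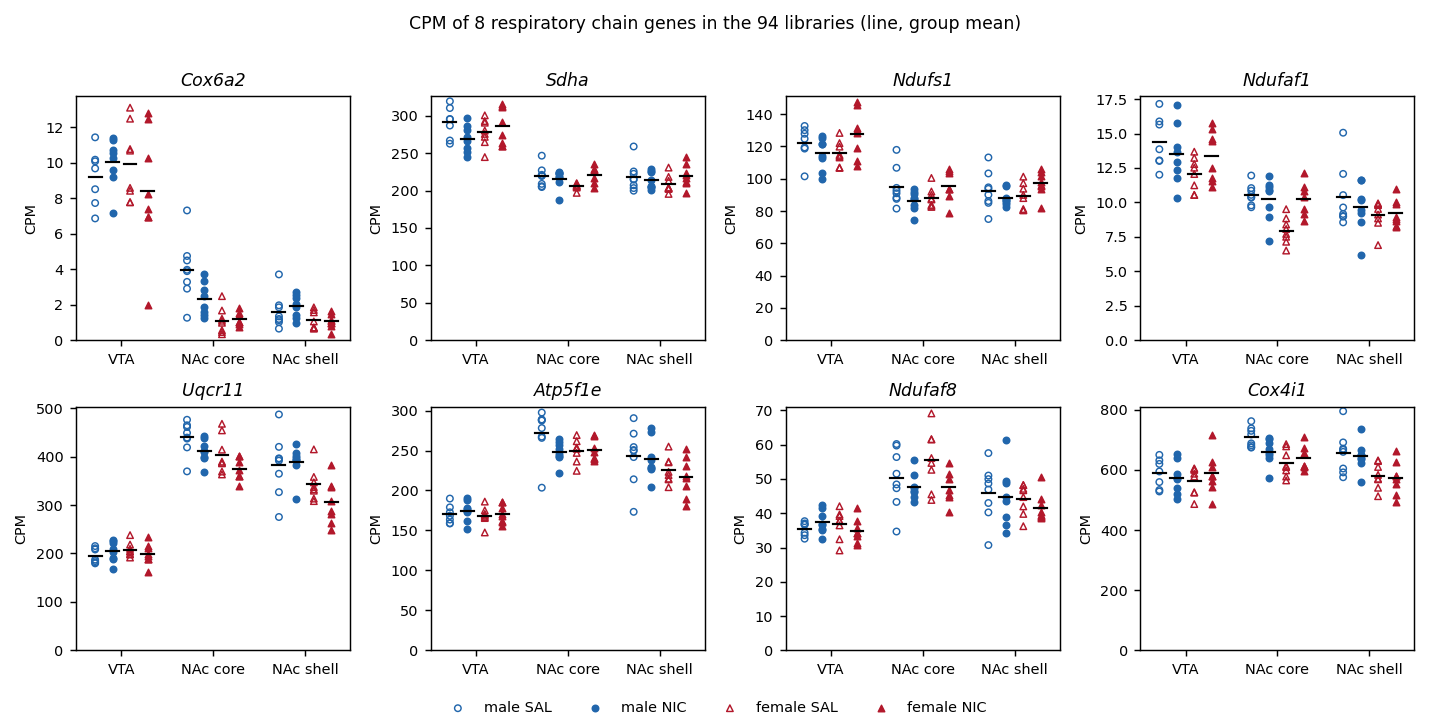
CPM (y axis, from 0) of 8 members in each library of VTA, NAc core and NAc shell (x axis), with males as blue circles, females as red triangles, SAL open, NIC filled and group means as black lines. Cox6a2, Sdha, Ndufs1 and Ndufaf1 lie higher in VTA, and Uqcr11, Atp5f1e and Ndufaf8 lower, with Uqcr11 at 161 to 238 CPM in VTA against 339 to 476 in NAc core.

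NAc core and shell differed less, and in a single direction. Of the 55 members, 19 were higher in core than in shell at an adjusted p under 0.05 and 0 were lower, where 15.8% of all genes were called higher and 16.5% lower. The count of lower members at an unadjusted p under 0.05 was also 0, and DESeq2 gave 0 at an adjusted p. The median difference of the members was 0.04. Beside Cox6a2, the largest were Cox8b at 0.53 ± 0.21, which did not pass (adjusted p = 0.0504), and Uqcr11 at 0.20 ± 0.04 (adjusted p = 5.72e-06). Ndufaf8 differed by 0.19 and Cox6b1, a subunit that bridges the complex IV dimer, by 0.15. The lowest values were those of Ndufaf3 (-0.03), Ndufs7 (-0.03) and Atp5f1a (-0.02), none of which passed. No member had core and shell values that did not overlap, against 0.0118% of all genes. The neuron markers also were mostly higher in core: 6 of the 11 tested passed, 0 were lower, and their median difference was 0.21. Striatal projection neuron markers were higher in core for 4 of 9 and lower for 0 (median 0.19). Of 2 cortical projection neuron markers 1 was higher and 0 lower (median 0.56). Of 9 oligodendrocyte markers 6 were higher in core and 0 lower (median 0.20), and of the 9 meningeal fibroblast and 9 choroid plexus markers 7 each were lower and 0 higher (medians -0.47 and -1.33). The part of these cell types in the 19 calls was not tested.

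The promoters of the members carried letters known from the control of nuclear mitochondrial genes. RefSeq promoter windows of 300 bases (250 before and 50 after the start, GRCr8) matched 48 of the 55 members by symbol; Atp5pd, Ndufa10l1, Ndufa8, Uqcr11, Uqcrb and Cox4i2 were among those without an entry. The NRF1 core CGCATGCG, which is its own reverse complement, was in 6 member windows (12.5%) and in 1.66% of all 33469 windows. The ETS core CCGGAAG, which GABP binds, was in 12 (25.0%) against 8.75%, and the YY1 core AAGATGGCG in 7 (14.6%) against 1.73%, all searched on both strands. The MEF2 core CTAAAAATA, known from muscle genes and added after the Cox6a2 window was seen, was in Cox6a2 alone among the members (2.08%) and in 0.511% of all windows. These letters do not overlap in the stretches below, and a match is a description and not a site. The 150 bases before the start are shown for ATP synthase subunits with the NRF1 core (Atp5mc2 and Atp5po) or with the ETS and YY1 cores (Atp5pf), for the complex II gene Sdhb and for Cox6a2, as examples chosen after the windows were seen. Atp5me (NRF1 and ETS cores) and Ndufaf1 (ETS core) also hold such letters in that stretch and are not shown, and the window of Atp5pf holds an NRF1 core outside it. Matches are in capitals, and each is written 5′ to 3′ on its gene's strand.
Atp5mc2 (GRCr8 chr7:135678219-135678368, minus strand, NRF1): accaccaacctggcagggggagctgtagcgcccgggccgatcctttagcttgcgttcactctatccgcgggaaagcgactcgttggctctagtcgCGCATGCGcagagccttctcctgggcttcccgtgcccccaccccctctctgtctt
Atp5po (GRCr8 chr11:44657484-44657633, minus strand, NRF1): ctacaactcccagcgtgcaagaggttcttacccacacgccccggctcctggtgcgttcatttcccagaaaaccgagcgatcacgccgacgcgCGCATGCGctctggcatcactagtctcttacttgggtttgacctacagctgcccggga
Atp5pf (GRCr8 chr11:37375102-37375251, minus strand, YY1 and ETS): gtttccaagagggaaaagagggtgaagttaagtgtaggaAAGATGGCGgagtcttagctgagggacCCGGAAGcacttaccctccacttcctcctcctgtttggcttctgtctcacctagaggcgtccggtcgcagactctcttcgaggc
Sdhb (GRCr8 chr5:158547784-158547933, plus strand, ETS): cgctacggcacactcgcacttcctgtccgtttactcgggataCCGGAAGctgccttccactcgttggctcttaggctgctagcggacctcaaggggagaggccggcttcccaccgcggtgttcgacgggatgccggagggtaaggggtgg
Cox6a2 (GRCr8 chr1:192219717-192219866, minus strand, MEF2): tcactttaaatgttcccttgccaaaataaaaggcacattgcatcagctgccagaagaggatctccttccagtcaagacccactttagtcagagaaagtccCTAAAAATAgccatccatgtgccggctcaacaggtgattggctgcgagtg

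In male NAc core nearly all members had lower means with NIC than with SAL, though none passed an adjusted p. The log2 fold change of NIC over SAL was below 0 for 53 of 55 members, with a median of -0.12, where 51.9% of all genes were below 0 and their median was -0.01. At an unadjusted p under 0.05, the study's threshold, 30 members were lower and 0 higher, against 4.06% and 5.78% of all genes, but 33 of the members were selected on this comparison and 28 of the 30 calls came from them. No member, and 0% of all genes in any of the 6 comparisons, passed at an adjusted p under 0.05 with edgeR (lowest adjusted p of a member 0.406), and with DESeq2 no member did.

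The 15 members named through tables of other libraries form a set that did not use this comparison, though 6 of them were also among the 33 it selected. All 15 had lower NIC means in male NAc core, with a median log2 fold change of -0.11, and 8 of the 15 had an unadjusted p under 0.05. The 6 that it also selected carried 6 of these 8 calls. The 8 members named through no table of these libraries had 2 calls, Ndufb8 and Cox4i1, and fold changes between -0.11 and -0.08. Absence from the study's tables of changed genes made few calls likely for these 8. Cox4i1 ran from 573 to 708 CPM with NIC (median 663) and from 674 to 762 with SAL (median 703), and the groups overlapped (log2 fold change -0.10 ± 0.05, p = 0.0447, two-sided exact permutation p = 0.0222). Ndufb8, an accessory subunit of the membrane arm, ran from 239 to 284 CPM with NIC (median 256) and from 236 to 293 with SAL (median 277), at -0.10 ± 0.05 (exact permutation p = 0.0424). Ndufaf5 was at -0.11 ± 0.05 (exact permutation p = 0.0513), Ndufb10 at -0.11 ± 0.07 (0.140), Atp5me, a membrane subunit of the ATP synthase, at -0.10 ± 0.06 (0.101), Ndufa8 at -0.08 ± 0.06 (0.258) and Cox8b at -0.08 ± 0.39 (0.991). None of the 8 passed an adjusted p with edgeR (lowest 0.504). Ndufb8 and Cox4i1 lost their unadjusted calls without male NAc core SAL 1, at -0.09 each.

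The 4 members with the smallest p in male NAc core are given as a description, since the comparison chose them. Ndufb3 ran from 103 to 122 CPM with NIC and from 116 to 135 with SAL, a log2 fold change of -0.15. Ndufa5 ran from 83.1 to 101 and from 93.2 to 108, at -0.13. Uqcrc1 was at -0.18 and Ndufaf7, a methyltransferase that assists complex I assembly, at -0.19. Cox6a2 had the widest difference, with 1.27 to 3.74 CPM with NIC and 1.26 to 7.31 with SAL (log2 fold change -0.78 ± 0.29), at levels of few reads. The groups overlapped for each of these genes. The member just inside the table was Uqcr11 (log2 fold change -0.10), and Cox4i1 (-0.10) lay just outside it.

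Every complex had a median below 0 in male NAc core, which is given as a description. All 33 members selected on this comparison were below 0, so the selection bears on these medians. The medians were -0.12 for the 25 complex I genes, -0.06 for complex II, -0.13 for complex III, -0.09 for complex IV and -0.13 for the ATP synthase, and the 2 members above 0 were Cox11 (0.02) and Cox4i2 (0.01), both of complex IV. Apart from Cox6a2, the log2 fold changes lay between -0.19 and 0.02, with a median SE of 0.06. The count of lower members was 25 without male NAc core SAL 1, which stood apart. The count of lower members was 18 without male NAc core SAL 3, 17 without SAL 7 and 18 without NIC 9, and the median stayed between -0.14 and -0.10 when each library was left out in turn.

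**Figure D3:**
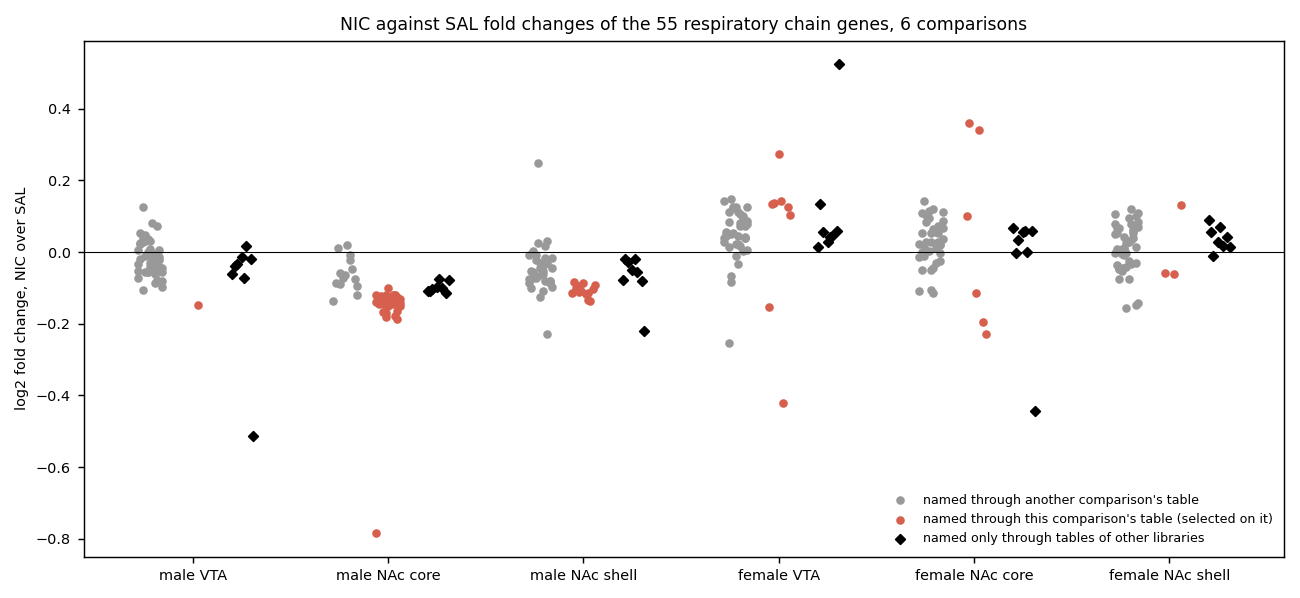
Log2 fold change of NIC over SAL (y axis) of the 55 members in the 6 comparisons (x axis). Red points were selected on that comparison, grey points were named through the table of another comparison, and black diamonds are the 8 members named only through tables of other libraries, which lie between -0.11 and -0.08 in male NAc core.

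In male NAc shell and VTA the median differences were nearer 0 than in NAc core when prep batch was not modelled. With batch as a covariate the male medians were -0.21 (VTA), -0.21 (NAc core) and -0.15 (shell), so this order did not hold for VTA. That fit estimates the NIC effect from batch C alone, the only male batch with both treatments. In NAc shell the fold change was below 0 for 50 of 55 members (51.5% of all genes), with a median of -0.07, and 6 members were lower and 0 higher at an unadjusted p under 0.05 (1.44% and 1.02% of all genes). All 6 had been selected on the shell comparison: Atp5mc3, a c-ring subunit of the ATP synthase, at -0.12, Uqcrc1 at -0.13, Uqcrfs1 at -0.11, Ndufb6 at -0.11, Ndufab1 and Sdhb. Of the 15 members named outside these libraries, 14 were below 0 with a median of -0.05, and 1 had an unadjusted p under 0.05. Of the 33 members selected on NAc core, 29 were below 0 in shell and 5 had an unadjusted p under 0.05; core and shell came from the same rats. The count of lower members in shell was 1 without NIC 16 or without SAL 5, 3 without NIC 9, NIC 12 or SAL 4, and 12 without NIC 13. Without male NAc shell SAL 1, the median was -0.04. In this shell comparison all 9 oligodendrocyte (median -0.15), 8 of 9 striatal projection neuron (-0.16) and 8 of 9 choroid plexus markers (-0.67) were below 0. At an unadjusted p under 0.05, 0, 0 and 1 were lower. Without SAL 1, 2, 2 and 3 were (medians -0.25, -0.33 and -0.76). Of 9 endothelial and mural markers 2 were below 0 (0.09) and 1 was higher at that threshold. The part of these lists, which carry the same selection, was not tested.

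In male VTA, 37 of 55 members were below 0 (49.2% of all genes) with a median of -0.03, and at an unadjusted p under 0.05 only Cox11 was lower (3.28% of all genes) and 0 members were higher (2.35%). With prep batch as a covariate 10 members were lower and 0 higher (2.16% and 2.36% of all genes in that fit), and within batch C 54 of 55 were below 0. Without that covariate the median was -4.8e-05 when NIC 11 was left out. Cox11 was the only member selected on this comparison, with a mean of 20.0 ± 1.35 CPM with NIC (SD, n = 8) and 22.3 ± 1.85 with SAL (n = 7, log2 fold change -0.15). Sdha ran from 245 to 296 CPM with NIC (median 269) and from 263 to 319 with SAL (median 295), at -0.11 ± 0.05 (exact permutation p = 0.0539). Ndufaf7 was at -0.10 ± 0.07 and Cox8b at -0.51 ± 0.31, neither past the threshold. Of the 15 members named outside these libraries, 12 were below 0 in VTA. In the same comparison 3 of 9 oligodendrocyte markers were lower (median -0.20) and 8 of 31 cytosolic ribosomal protein genes higher (0.08) at an unadjusted p under 0.05, and all 9 meningeal fibroblast markers were above 0 (0.40, of which 0 passed). All 8 dopaminergic markers were above 0 too (median 0.19, of which 1 passed). These lists carry the selection of the gene tables, and their part was not tested.

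In females most members had higher means with NIC when prep batch was not modelled, a direction that turned in NAc core and shell with batch as a covariate (medians -0.05 and -0.15) and stayed above 0 in VTA (0.05, with 1 member higher and 0 lower, where 1.07% and 0.676% of all genes were). Only batch J held both treatments in female NAc core and shell, while VTA had batches J and L. Within batch J the VTA median was below 0 as well, at -0.04, with 43 of 55 members below 0. Batch L, with 1 NIC and 2 SAL libraries, gave a VTA median of 0.18, with 4 of 55 members below 0. In VTA the fold change was above 0 for 48 of 55 members, with a median of 0.06, where 45.0% of all genes were below 0 and their median was 0.02. At an unadjusted p under 0.05, 4 members were higher and 2 lower, against 4.04% and 5.20% of all genes. More were higher in the fit of all 12 groups, from which the interactions came (counts in the closing section). Sdhaf4 ran from 14.4 to 19.0 CPM with NIC (median 15.7) and from 11.5 to 15.6 with SAL (median 13.2), a log2 fold change of 0.27. Cox4i2 ran from 2.46 to 4.64 with NIC and from 3.62 to 5.83 with SAL, at -0.42. Uqcr10 was at -0.15 and Ndufb4 at 0.14. These 4 were selected on this comparison, so their values are a description. Of the 4 higher calls, only Ndufc2 was not selected on it (0.12 ± 0.05, exact permutation p = 0.0141), named here after its value was seen. All 8 members named only through other libraries were above 0, with a median of 0.05, and none had an unadjusted p under 0.05. Their absence from the study's tables of changed genes made such calls unlikely from the start. The count of higher members was 7 without female VTA NIC 2, which stood apart, 7 without NIC 5, 8 without SAL 9, 12 without NIC 7 and 2 without NIC 4, and the median was 0.02 without NIC 4. Other lists differed in female VTA too. Of 9 endothelial and mural markers 6 were lower at an unadjusted p under 0.05 (median -0.31), with a summed level of 438 to 697 CPM with NIC and 589 to 1111 with SAL. Of 31 cytosolic ribosomal protein genes 14 were lower (median -0.11). All 9 meningeal fibroblast markers (median -0.74, 2 past the threshold) and all 8 dopaminergic markers (median -0.36, 0 past it) were below 0. Without NIC 2 these medians were -0.23 (endothelial and mural, 4 lower), -0.10 (ribosomal, 9 lower), -0.60 (meningeal, 1 lower) and -0.19 (dopaminergic). These lists carry the same selection, and their part in the members' differences was not tested.

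In female NAc core 38 of 55 members were above 0, with a median of 0.03 that was 0.0021 without NIC 3 (49.5% of all genes were below 0), and 4 were higher and 2 lower at an unadjusted p under 0.05 (2.87% and 3.57% of all genes). Ndufaf1 ran from 8.65 to 12.1 CPM with NIC and from 6.51 to 9.51 with SAL, a log2 fold change of 0.36, and Sdha was at 0.10. Ndufaf8 was at -0.23 and Uqcr10 at -0.19, all 4 selected on this comparison. The other calls, Atp5pd at 0.12 ± 0.05 and Ndufb4 at 0.12 ± 0.06 (exact permutation p = 0.0270 and 0.0446), were not selected on it and are named after their values were seen. In the same core comparison 5 of 31 cytosolic ribosomal protein genes were lower (median -0.045) and 0 higher at an unadjusted p under 0.05. Of 6 microglia markers 2 were higher (0.10) and 0 lower. The part of these lists was not tested. In female NAc shell 34 of 55 were above 0, with a median of 0.02 (48.1% of all genes were below 0), and 2 were higher and 0 lower (5.25% and 4.88% of all genes). Ndufs1, selected on it, was at 0.13, and Uqcrfs1, which was not, ran from 115 to 140 CPM with NIC (median 130) and from 110 to 134 with SAL (median 118), at 0.11 ± 0.05 (exact permutation p = 0.0623). Atp5f1c, the gamma subunit of the rotor, and Ndufb4 were at 0.11 and 0.10 (exact permutation p = 0.0855 and 0.0859). In the same shell comparison all 9 striatal projection neuron markers were lower (median -0.36) and 3 of 9 oligodendrocyte markers higher (median 0.30) at an unadjusted p under 0.05. Both lists carry the same selection, and their part was not tested. With prep batch as a covariate, 0 members were higher and 5 lower in female NAc core (2.21% and 2.38% of all genes in that fit), and 0 higher and 10 lower in shell (2.53% and 1.2%).

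Whether the NIC effect differed between the sexes was tested as an interaction. No member passed at an adjusted p under 0.05 in any region with edgeR. At an unadjusted p under 0.05, the male effect was below the female effect for 20 NAc core members (4.15% of all genes), 7 NAc shell members (5.50%) and 7 VTA members (4.72%). It was above for 0 members, where 4.10%, 3.66% and 6.68% of all genes were. The median interactions of the members in that order were -0.15, -0.07 and -0.09. This fit did not model prep batch. With batch as a covariate in each sex's own comparison, the medians were -0.15 in both sexes for NAc shell, -0.21 in males and -0.05 in females for NAc core, and -0.21 and 0.05 for VTA. Other lists moved with the interaction at an unadjusted p under 0.05. In VTA the male effect was above the female effect for all 9 meningeal fibroblast markers (median 1.22), 6 of 9 endothelial and mural markers (0.57) and 13 of 31 cytosolic ribosomal protein genes (0.17). In NAc shell it was below for 6 of 9 oligodendrocyte markers (-0.40). In NAc core all 11 neuron markers had values below 0 (-0.23), of which 0 passed. Without the libraries that stood apart, these medians were 1.1, 0.49, 0.17, -0.51 (9 of 9 oligodendrocyte markers lower) and -0.21. These lists carry the same selection, and their part in the members' interactions was not tested. These counts draw on genes selected on either sex; of the 15 members named outside these libraries, 3 were below at an unadjusted p under 0.05 for NAc core, 1 for shell and 0 for VTA. The lowest adjusted p of a member was 0.275 in VTA (Sdhaf4, -0.31 ± 0.12), 0.402 in NAc shell (Uqcrfs1, -0.21 ± 0.08) and 0.516 in NAc core, shared by Ndufb4 (-0.24 ± 0.08) and others.

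The prep batch given in the labels moved with these differences. NIC and SAL libraries shared a batch in few cases: in males only batch C held both, with 4 NIC and 2 SAL libraries for NAc core, 3 and 2 for shell and 2 and 2 for VTA. Within batch C the median NIC minus SAL difference of the members was -0.21 (NAc core), -0.15 (shell) and -0.23 (VTA), with 53, 49 and 54 of the 55 members below 0 (50.2%, 51.8% and 50.0% of all genes) and all 15 members named outside these libraries below 0 in each. In females, batch J gave -0.04 (VTA), -0.04 (NAc core) and -0.17 (shell) from 2 NIC and 2 SAL libraries each, and batch L gave 0.18 in VTA from 1 NIC and 2 SAL libraries. In batch J 43, 36 and 52 of the 55 members were below 0 in that order, against 45.6%, 48.2% and 51.4% of all genes. In batch L 4 of the 55 were below 0, against 51.2% of all genes. With batch as a covariate the median of the members was -0.21 in male NAc core, -0.15 in male NAc shell, -0.21 in male VTA, 0.05 in female VTA, -0.05 in female NAc core and -0.15 in female NAc shell. Such fits estimate the NIC effect only from batches that hold both treatments. They rest on the same few libraries as the within-batch values and are not a second check. Rat 7, 1 of the 2 SAL rats of batch C, had the highest SAL median in male NAc core (0.20) and male VTA (0.18). The negative medians of males were thus larger within the shared batch, and the positive medians of female NAc core and shell were negative there.

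**Figure D4:**
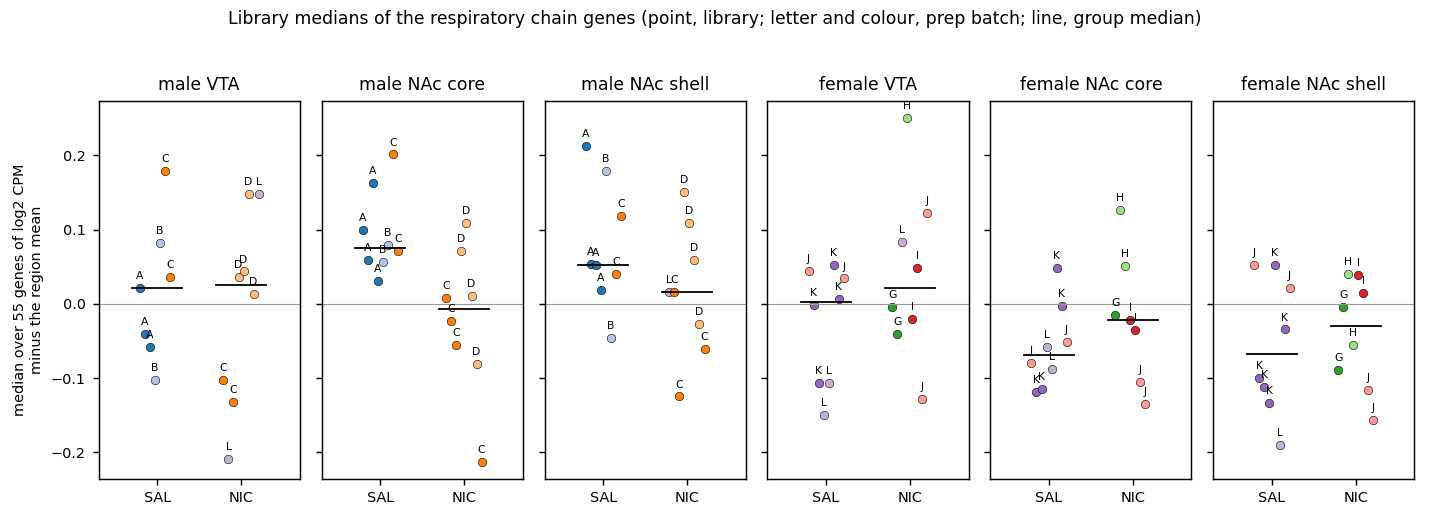
Median over the 55 members of log2 CPM minus the region mean (y axis) for each library, by treatment (x axis) in the 6 comparisons, with the prep batch as a letter and colour and the group median as a line. In male NAc core the batch C NIC libraries run from -0.21 to 0.01 and the 2 batch C SAL libraries are at 0.07 and 0.20, while the NIC libraries of batch D run from -0.08 to 0.11.

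In male NAc core the library medians (log2, against the region mean) ran from -0.21 to 0.11 with NIC and from 0.03 to 0.20 with SAL, and the groups overlapped. The lowest, NIC 9, had 54 of 55 members below the region mean, and the highest, SAL 7, had 1. In the same 2 libraries the mitochondrial ribosomal protein genes were at -0.18 and 0.08, the glycolysis enzymes at -0.32 and 0.24, the neuron markers at -0.53 and 0.17 and the meningeal fibroblast markers at 1.35 and 0.10. Other lists differed between NIC and SAL in male NAc core as well. Of the 9 meningeal fibroblast markers tested, 8 were higher at an unadjusted p under 0.05 with a median of 0.54; their summed level ran from 447 to 1310 CPM with NIC and from 310 to 710 with SAL, and none was at 0. Of 9 endothelial and mural markers, 4 were higher, with a median of 0.17. Of 11 neuron markers, all were below 0 with a median of -0.13 and 0 had an unadjusted p under 0.05; their summed level ran from 5198 to 10030 CPM with NIC and from 7522 to 11320 with SAL. These markers were named by the same tables, so their counts carry the same selection. The part of these cell types in the members' differences was not tested.

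Other mitochondrial and energy genes gave context in male NAc core. Of 32 mitochondrial ribosomal protein genes tested, 29 were below 0 and 10 lower at an unadjusted p under 0.05, with a median of -0.09. Of 10 citrate cycle enzymes 9 were below 0 (2 past the threshold, median -0.10), of 7 genes of mitochondrial import and outer membrane all were below 0 (2 past it, median -0.10), and of 11 glycolysis enzymes all were below 0 (5 past it, median -0.13). The 31 cytosolic ribosomal protein genes had a median of -0.02 with 1 lower, and the 8 regulators of mitochondrial biogenesis, such as the coactivators and factors that drive these genes, had a median of 0.04 with 0 past the threshold. The 11 assembly factors with other names had a median of -0.03, with 2 lower. These lists hold only genes that the same tables named, so their counts carry the same selection. Subunits encoded in the mitochondrial genome had no named row and were not analysed here.

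Of the 10 citrate cycle enzymes tested, 8 were higher in VTA than in NAc core and 0 lower, with a median difference of 0.20, and against NAc shell the counts were again 8 and 0 with a median of 0.18. Of the 32 mitochondrial ribosomal protein genes, 9 were higher and 14 lower in VTA than in NAc core (41.3% and 40.3% of all genes), with a median of -0.04. Of the cell type lists, all 9 oligodendrocyte markers were higher in VTA than in either accumbens region, by a median of 1.50 and 1.81, and of the 11 neuron markers 7 were higher and 4 lower against NAc core. In VTA against NAc core, 25 of 31 cytosolic ribosomal protein genes were lower (median -0.36) and all 9 striatal projection neuron markers lower (-3.48), while 5 of 7 astrocyte (1.08), 8 of 9 endothelial and mural (0.43) and all 9 meningeal fibroblast markers (1.33) were higher. The part of cell makeup in the region differences of the members was not tested.

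Males and females were compared within each region over both treatments. In VTA 0 members were higher and 0 lower in males at an adjusted p under 0.05 (2.14% and 3.58% of all genes were), and at an unadjusted p under 0.05 0 were higher and 4 lower (9.10% and 11.0% of all genes). In NAc core 16 members were higher in males and 0 lower (15.0% and 15.7% of all genes), with a median difference of 0.08, and in NAc shell 20 were higher and 0 lower (12.2% and 11.7%), with a median of 0.10. Without the libraries that stood apart the counts were 13 in each. Other lists differed between the sexes in NAc core at an adjusted p under 0.05: all 9 striatal projection neuron markers were lower in males (median -0.70, and -0.62 without the libraries that stood apart), 8 of 11 neuron markers higher (0.28) and 8 of 11 glycolysis enzymes higher (0.18). In shell 8 of 11 glycolysis enzymes were higher (0.16), 3 of 11 neuron markers higher (0.14), 4 of 9 endothelial and mural markers higher (0.21) and 5 of 9 oligodendrocyte markers lower (-0.27). The part of cell makeup in the members' sex differences was not tested. Sexes were prepared in different batches except for batch L, which held both in VTA and NAc shell but no male NAc core library. In NAc core sex and prep batch cannot be told apart. For VTA and shell only the few libraries of batch L separate them, and this fit did not model batch.

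Cox6a2 differed most between the sexes in NAc core. There it ran from 1.26 to 7.31 CPM in males (mean 3.15 ± 1.59, SD, n = 16) and from 0.334 to 2.48 in females (1.15 ± 0.565, n = 15), a log2 difference of 1.41 ± 0.22 (adjusted p = 5.57e-07) with overlapping groups. In NAc shell the difference was 0.68 ± 0.22 (adjusted p = 0.0148), and in VTA, where the gene is highest, it was 0.07 ± 0.19 and did not pass (adjusted p = 0.877). Cox8b, with means under 1 CPM in both sexes of the accumbens, differed by 0.71 ± 0.30 (NAc core) and 0.68 ± 0.31 (shell), neither past the threshold. Beyond these isoforms the differences were small: in NAc core Atp5f1d was higher in males by 0.21, Cox6b1 by 0.19 and Ndufb2 by 0.17, and in NAc shell Uqcr11 by 0.25, Ndufv1, which binds NADH, by 0.17 and Cox4i1 by 0.17. The members with the lowest values were Uqcrb (-0.08) and Ndufaf8 (-0.07) for core, and Ndufs1 (-0.04) and Ndufaf7 (-0.04) for shell, none past the threshold. In VTA the extremes were Cox8b at -0.18, Ndufb3 at -0.12 and Ndufaf1 at 0.13.

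**Figure D5:**
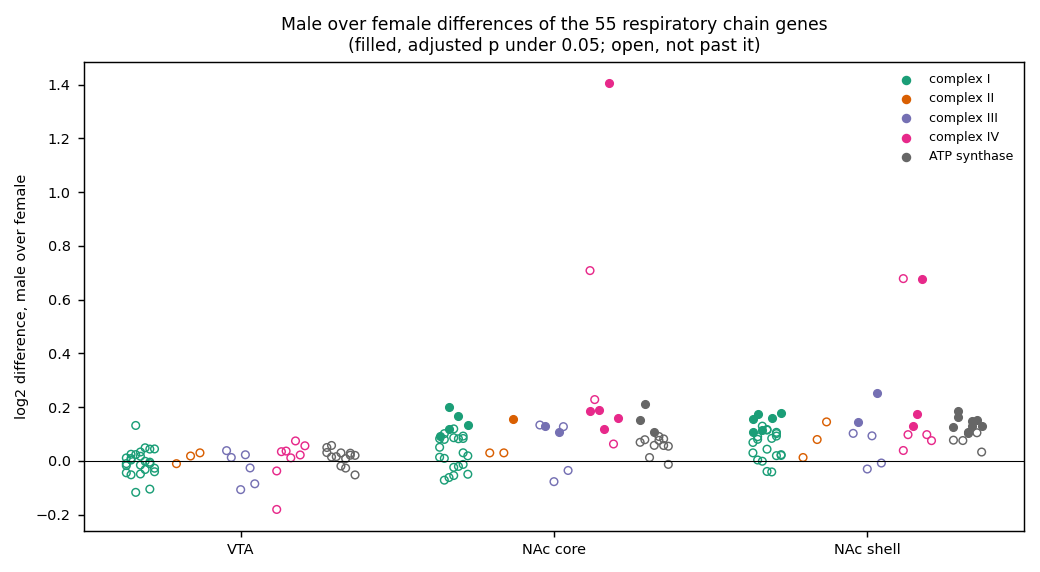
Log2 difference of males over females (y axis) for the 55 members in VTA, NAc core and NAc shell (x axis), coloured by complex, filled where the adjusted p was under 0.05. Filled points in NAc core and shell all lie above 0, with Cox6a2 at 1.41 and 0.68, and no point is filled in VTA.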

How the data were processed

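The authors trimmed paired-end reads with fastp 0.20.0, quantified them with Salmon 0.12.0 on Rnor version 6 and collapsed transcripts to genes, and deposited the estimated counts of each gene, unnormalized and in whole numbers. The rounding step is not given in the sources used here. All 96 library columns have labels, and 94 were used. The 2 others (a first run of male VTA SAL 5, and female NAc core NIC 1) entered only where all mapped libraries are named. The members, gene lists and tests were chosen with earlier results of these data known. Columns of the study's own fold changes and p-values were not used; its tables gave symbols only, and some were read in part. Naming the gene family from the reference was planned and not run, since the reference table was not paired with the identifiers. Values of 1 member are not reported here by name, though it is in the counts.

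Genes were tested if 3 or more libraries had a normalized count above 10, in R 4.3.3 with edgeR 4.0.16 (quasi-likelihood test, TMM factors, Benjamini-Hochberg adjustment over all 16879 genes). NIC was compared with SAL within each sex and region. Region, sex and interaction contrasts came from a fit of 12 groups. For named genes a two-sided exact permutation test used log2(CPM + 0.5). DESeq2 1.42.0 was an alternative. Named were the 4 members with the smallest p in each NIC comparison, the 3 most positive and 3 most negative in each region contrast, the 2 most each way in each sex contrast, members named only outside these libraries, and the tissue isoforms; further members are given as examples of their complex. Ribosomal protein genes were taken by symbol, leaving out the Rps6k kinases. Library totals ran from 15868529 to 27736905 counts, and genes near 1 CPM rest on few reads. The edgeR steps were tested on simulated counts with known changes. In a simulated NIC comparison of male NAc core, 0% of 1.1-fold changes passed an adjusted p under 0.05 and 24.6% an unadjusted p. Of 1.25-fold changes, 23.6% and 62.5% did. A lack of calls at an adjusted p thus says little about changes this small.

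Regions of a rat share its number, so animals pair the region contrasts. Same-rat libraries of NAc core and shell had a median correlation of 0.129 over genes centred within groups, against -0.0124 for other rats, and VTA with NAc core 0.0342 against -0.012. NIC and SAL rats share no number.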

Additional observations from a re-analysis of the deposited data

Results flagged for a closer look

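Dixon's test was run on the library medians of the members and on log2(CPM + 0.5) of 8 members over 12 groups each, 108 groups in all, and 11 values lay outside; about 1 in 20 groups is marked by chance. None was a library median. Female VTA NIC 2, whose Th was also low, held 2 of them: Cox6a2 at 1.99 CPM, the lowest of its group, and Cox8b at 2.97 CPM, the highest. Male NAc core SAL 1, which also stood apart by its striatal markers, had the highest Cox4i2 of its group at 5.91 CPM. Male NAc core NIC 9, the library with the lowest member median, had the lowest Sdha of its group at 188 CPM. The others were Cox4i2 in male NAc shell NIC 11 (2.56 CPM), Cox6a2 in male VTA NIC 10 (7.19), Uqcr11 in male NAc shell NIC 12 (312), Sdha in female NAc core SAL 12 (197) and male NAc shell SAL 6 (259), Atp5f1e in male NAc core SAL 4 (204) and Ndufaf1 in female NAc shell SAL 14 (6.90).

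Of the 2 libraries left out, female NAc core NIC 1 had 16 of the 55 members outside the range of the other NAc core libraries. Its Uqcr11 was at 181 CPM where the others ran from 339 to 476, and its Th was at 329 CPM where the highest other had 3.90. Male VTA SAL 5 R1 had 0 members outside the range of the VTA libraries.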

How the results depend on the processing

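Each count of members higher or lower between regions stayed within 1.5 times of its value under every alternative run, but for VTA over NAc core the excess of lower over higher members was gone without the libraries that stood apart (23 and 23). With the animal as a replicate block (paired within rats) the counts were 21 higher and 27 lower for VTA over NAc core, 23 and 18 for VTA over NAc shell, and 19 and 0 for NAc core over shell. The block changed no other call by over 1.5 times. No paired analysis was possible for NIC because NIC and SAL rats share no numbers. Prep batch as a covariate moved most: median fold changes went to -0.21 in male VTA (10 members lower), -0.21 in male NAc core, -0.04983 in female NAc core (5 lower, 0 higher) and -0.15 in female NAc shell (10 lower, 0 higher), with 0 lower and 1 higher in female VTA. All 12 groups in one fit gave 3 lower in male NAc shell, 11 higher and 1 lower in female VTA, and 0 higher and 1 lower in female NAc shell. DESeq2, by its own test or by its size factors alone, gave 2 lower in male VTA. Without the libraries that stood apart, 7 members were higher in female VTA, 13 were higher in males in NAc shell, and 2 had an interaction above 0 at an unadjusted p under 0.05 in NAc shell; with all mapped libraries 1 did in VTA at that threshold. Apart from prep batch, shares of all genes called were not taken for these alternatives or for single libraries left out. A change in the members' counts there cannot be set against a change over all genes. The cause of these shifts was not tested.

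Leaving out each library in turn, the lower counts ran from 17 to 39 in male NAc core, 1 to 12 in male NAc shell, 0 to 2 in male VTA, 1 to 3 in female NAc core, 0 to 2 in female NAc shell and stayed at 2 in female VTA, and the higher counts ran from 2 to 12 in female VTA, 2 to 7 in female NAc core and 0 to 5 in female NAc shell and were 0 in males. No member passed an adjusted p in a NIC comparison under any alternative. Signs turned with prep batch in female NAc shell for Ndufs1 (-0.13), Uqcrfs1 (-0.16), Atp5f1c (-0.14) and Ndufb4 (-0.13), in saline libraries only for Ndufs7 between NAc core and shell (0.00275), and without the libraries that stood apart for Cox6a2 between sexes in VTA (-0.00786). In male NAc core, leaving out single libraries gave Cox8b values from -0.21 to 0.111 and Atp5mc2 values from -0.03397 to 1.393e-05, above 0 for 5 and 2 libraries. Changes below about 0.1 in log2 are near the SE of a NIC comparison.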
